A study of Bos taurus with 8 samples.

Results

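The splicing factors of the SRSF, HNRNP, SF3A and SF3B, SNRP and U2AF families were followed in granulosa cells of heat-stressed and pair-fed cows. Members were all genes of the annotated array table whose single symbol begins with one of these family names, and where a symbol had several transcript clusters the cluster with the highest mean signal over the 8 arrays was taken. This gave 51 genes (10 SRSF, 18 HNRNP, 9 SF3, 11 SNRP and 3 U2AF) of 19901 genes with a single symbol and of 26773 transcript clusters in all. A transcript cluster is the set of probes that the array assigns to 1 gene, so its value sums over splice isoforms and cannot tell them apart. Values are RMA signals on the log2 scale, on which a difference of 1 is a doubling, and they were not compared between genes because the probes differ.

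Lactating German Holstein cows were kept in a respiration chamber for 96 h, either at 28 °C, 52% relative humidity and a temperature-humidity index of 76 (heat stress, HS, 4 cows) or at 15 °C, 64% relative humidity and an index of 60 with feed matched to the heated cows (pair-fed, PF, 4 cows). All cows of both groups received PGF2α 72 h before slaughter to end the luteal phase and, 49 h after it, 100 µg of a GnRH analog to start a preovulatory LH surge. Mural granulosa cells, the somatic cells that line the follicle, were scraped from the wall of the dominant follicle, and 1 Bovine Gene 1.0 ST array was run per cow. The arrays are called HS1 to HS4 and PF1 to PF4 below, each the sample of a different cow.

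Splicing removes introns from the primary transcript and is carried out by the spliceosome, which is built on every intron from small nuclear ribonucleoproteins (snRNPs). The SNRP genes encode protein subunits of these snRNPs, among them the Sm proteins that form a ring around the snRNA. SF3A and SF3B are the protein complexes that let the U2 snRNP hold the branch point, and U2AF recognizes the end of the intron, downstream of the branch point. The SRSF (SR) proteins bind exons and mostly favor their inclusion, while HNRNP proteins coat the transcript and often act in the opposite sense. Most of these roles were worked out in human cells. In many species, heat is known to disturb splicing and to change the phosphorylation of SR proteins, which an array of transcripts does not measure.

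The array medians lay between 5.27 and 5.37 in HS and between 5.33 and 5.44 in PF. PF3 stood apart from the other arrays, with a correlation over all clusters of 0.926 to 0.953 with each of them. All 12 granulosa identity markers had a mean log2 of at least 5, and their mean signal was 8.82 to 9.44 in HS and 8.12 to 8.78 in PF, lowest in PF3. The single markers were split in PF3. FOXL2 (8.25) had its highest value there, and CYP19A1 (6.92), FSHR (8.57) and INHBA (9.97) were higher only in HS4. HSD3B1 (7.36), INHA (8.005), CYP11A1 (8.20), NR5A2 (8.89), GATA4 (7.715) and AMH (6.31) had their lowest values in PF3, and STAR and SERPINE2 lay between. The mean of 9 genes that the LH surge induces was 7.88 to 8.21 in HS and 7.98 to 8.95 in PF1, PF2 and PF4, but 5.64 in PF3, where PTGS2, the inducible prostaglandin synthase, had a log2 signal of 3.46. These genes were split as well. PTGS2, TNFAIP6, PTX3, PTGES, EREG and PGR had their lowest values in PF3. RUNX1 (7.48) lay above every HS array there, ADAMTS1 (8.84) lay within the range of HS, and AREG was weak in all arrays. Markers of other cell types were compared as well, and the ranges of the groups overlapped. All 9 fibroblast and smooth muscle, all 8 endothelial, all 8 myeloid and all 8 lymphocyte and pan-leukocyte markers had a lower mean in HS. In the last list 4 genes had a mean log2 under 5. The fibroblast and smooth muscle mean was 7.21 to 9.33 in HS and 7.69 to 10.14 in PF. The endothelial mean was 5.127 to 8.035 in HS and 5.393 to 8.74 in PF. The myeloid mean was 5.69 to 6.81 in HS and 5.83 to 8.66 in PF. PF3 had the highest mean of the myeloid and of the lymphocyte list. The 2 theca markers were split, INSL3 with the higher and CYP17A1 with the lower mean in HS. All 5 oocyte markers were under a log2 of 5. Fewer cells of a type and less RNA per cell cannot be told apart in such scraped samples. The part of these cell type markers, or of the state of PF3, in the results below was not tested. The main values are therefore given with and without PF3.

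No splicing factor differed between HS and PF past a threshold of the test. With limma, 0 of the 51 members had an unadjusted p under 0.05, while 7.2% of all clusters did (4.39% higher and 2.81% lower in HS), and 0 passed the study's thresholds of a fold change above 1.5 with an unadjusted p under 0.05, while 2.21% of all clusters did. The unadjusted p of SNRPA, SRSF2 and SF3A1 lay just above 0.05, so the count of 0 hangs on the exact cut. That of SRSF2 fell just under it in the fit limited to clusters with a symbol. The smallest adjusted p of a member was 0.683, and 0% of all clusters had an adjusted p under 0.05. Without PF3, 3 members (5.88%) had an unadjusted limma p under 0.05, against 10.7% of all clusters, HNRNPM with the higher and HNRNPH2 and SNRPB2 with the lower mean in HS, and none had an adjusted p under 0.05. The methods' t-test, which is their analysis of variance for 2 groups, gave an unadjusted p under 0.05 for 5 of the 51 members, against 6.73% of all clusters. These were HNRNPM, SF3A3, SNRPA and SNRPN with the higher mean in HS and SRSF2 with the lower one, each with an adjusted p of 0.725. The mean was higher in HS for 22 members and lower for 29, where 46% of all clusters had the higher mean in HS. Without PF3 it was 25 and 26, with 47.9% of all clusters higher. The log2 fold changes (HS minus PF) of the members ran from -0.45 to 0.51 with a median of -0.02, the same median as that of all clusters.

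Intervals show how large a difference these arrays could have missed. For 35 of 51 members (68.6%) the 95% confidence interval of the fold change lay inside 1.5-fold in either direction, which was so for 60.0% of all clusters. Without PF3 this was 47 of 51 members (92.2%), against 66.9% of all clusters. Members were well measured, with a median mean signal of 8.25 where that of all clusters was 5.38. Only SRSF12 and SNRPF had a mean signal under 5, where 43.4% of all clusters lay. The plot of fold changes shows the wide intervals of SRSF5, SF3B4, SF3B5, SNRPB and SNRPD3 beside the narrow one of HNRNPU.

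**Figure D1:**
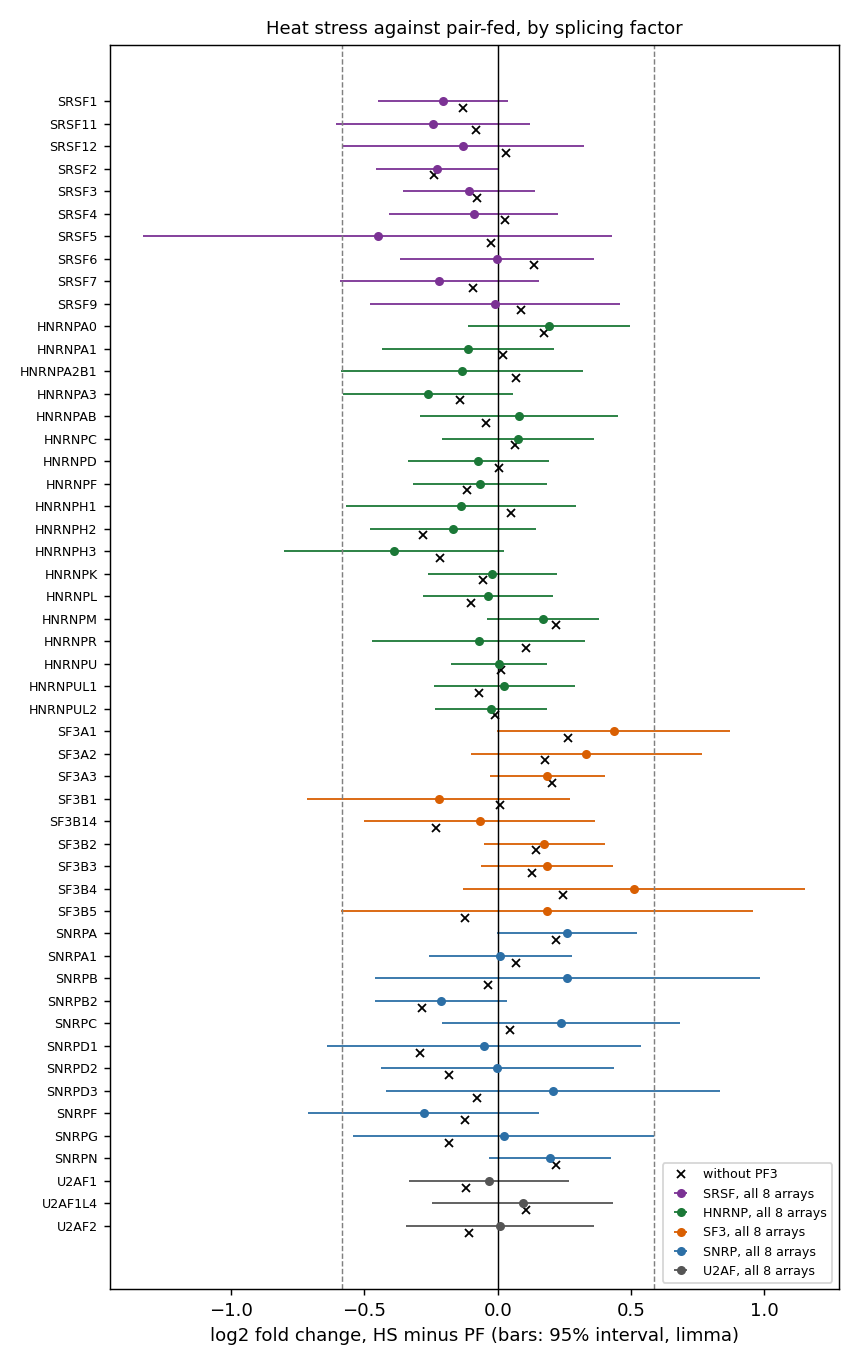
Log2 fold change (HS minus PF) of each of the 51 splicing factors with its 95% confidence interval from limma over 8 arrays (dots and bars, colored by family), and the same fold change without PF3 (crosses). Dashed lines mark a fold change of 1.5 in either direction; every interval includes 0, all 10 SRSF dots lie below 0 and 7 of 9 SF3 dots lie above 0.

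The groups did not overlap for 3 of 51 members (5.88%), and 4.64% of all clusters showed no overlap. These were SF3A1 and SNRPA, with every HS array above every PF array, and SRSF2, with every HS array below every PF array. For each of them the exact two-sided permutation test gave p = 0.029, the smallest value that 4 against 4 arrays allow. Without PF3 it was 6 members, 3 in each direction, against 10.8% of all clusters.

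All 10 SRSF genes had the lower mean in HS (median log2 fold change -0.17), and none had an unadjusted limma p under 0.05. Without PF3 it was 6 of 10 with a median of -0.05, and after subtraction of the array medians 8 of 10. SRSF2 (SC35), a protein of nuclear speckles that acts in early spliceosome assembly, had log2 signals of 8.19, 7.94, 8.25 and 8.19 in HS1 to HS4 and of 8.30, 8.46, 8.34 and 8.38 in PF1 to PF4. HS2 was the lowest array, and the highest HS array lay just below the lowest PF array. This gave a log2 fold change of -0.23 (SE 0.10, exact permutation p = 0.029), and -0.24 without PF3. SRSF1 (ASF/SF2), an SR protein that promotes exon inclusion and takes part in splice site choice, lies on chr19:9038200-9041927 of the bovine build UMD3.1. It had signals of 9.01, 8.98, 8.98 and 9.10 in HS and of 9.17, 9.22, 9.45 and 9.06 in PF, so that HS4 lay above PF4 alone. Its log2 fold change was -0.21 (SE 0.11, exact permutation p = 0.0571), and -0.13 without PF3.

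SRSF5 had the lowest fold change of the family, and 1 array decided it. The signals were 7.35, 7.13, 7.26 and 7.26 in HS and 6.93, 7.55, 8.97 and 7.36 in PF. PF3 lay far above all other arrays, while the remaining PF arrays enclosed the HS arrays. Hence the log2 fold change was -0.45 with all arrays (SE 0.38, exact permutation p = 0.457), -0.03 without PF3 and -0.71 without PF1. SRSF6, on chr13:72804660-72810323 of UMD3.1, had the smallest difference of the family. Its signals were 9.37, 9.34, 9.31 and 9.35 in HS and 8.96, 9.40, 9.75 and 9.26 in PF, which gave an SD of 0.025 in HS and 0.33 in PF. The groups had almost the same mean and a very different spread, with PF1 lowest and PF3 highest. SRSF11, an SR-related protein that binds U2AF, showed 8.20, 8.37, 8.26 and 8.26 in HS and 8.33, 8.34, 8.997 and 8.39 in PF, and its log2 fold change of -0.24 was -0.08 without PF3. SRSF3, SRSF4, SRSF7, SRSF9 and SRSF12 had log2 fold changes between the extremes of SRSF5 and SRSF6 and overlapping groups.

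Of the 18 HNRNP genes, 6 had the higher and 12 the lower mean in HS, the median log2 fold change was -0.05, and the 95% confidence interval of 16 genes lay inside 1.5-fold. Without PF3 the split was 9 and 9 and all 18 intervals lay inside 1.5-fold. HNRNPU, a nuclear matrix protein that binds RNA and DNA, had the smallest SE of all members (0.08), with signals of 9.81, 9.83, 9.77 and 9.78 in HS and 9.75, 9.84, 9.82 and 9.78 in PF. The arrays of both groups were interleaved, with an SD of 0.029 in HS and 0.04 in PF, and the 95% confidence interval of the log2 fold change ran from -0.18 to 0.18. HNRNPA1, which competes with SR proteins for exons, had 10.49, 10.38, 10.52 and 10.56 in HS and 10.40, 10.49, 10.99 and 10.51 in PF. Apart from PF3 its arrays differed by little. HNRNPL, which binds CA-rich RNA, had 10.15, 10.14, 10.18 and 10.14 in HS and 10.10, 10.38, 9.99 and 10.29 in PF, that is, a mean of 10.15 ± 0.02 in HS and 10.19 ± 0.18 in PF (SD, n = 4 each).

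HNRNPH3, a relative of HNRNPH1 on chr28:24904446-24915401 of UMD3.1, had the lowest fold change of the family. Signals were weak, 4.89, 5.003, 4.74 and 5.03 in HS and 5.11, 5.27, 5.83 and 5.02 in PF. HS4 lay just above PF4, and otherwise HS was below PF. The log2 fold change was -0.39 (SE 0.18, exact permutation p = 0.0571), and -0.21 without PF3. HNRNPH2, from the same subfamily that binds G-runs, had 7.85, 7.69, 7.75 and 7.73 in HS and 7.99, 8.20, 7.58 and 7.92 in PF. All HS arrays lay below PF1, PF2 and PF4 and above PF3. Its log2 fold change was -0.17 with all arrays (SE 0.14, exact permutation p = 0.286), -0.08 without PF2 and -0.28 without PF3 (SE 0.10, limma, adjusted p = 0.408).

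At the other end, HNRNPA0, an hnRNP with a role in the stability of cytokine mRNAs, had the highest fold change of the family. It showed 8.04, 7.79, 7.60 and 7.85 in HS and 7.41, 7.84, 7.56 and 7.68 in PF, with a log2 fold change of 0.19 (SE 0.13, exact permutation p = 0.2), and 0.12 without HS1 or PF1. HNRNPM, which binds GU-rich RNA, had 8.61, 8.52, 8.50 and 8.59 in HS and 8.30, 8.40, 8.54 and 8.31 in PF. Only PF3 reached into the range of HS. The log2 fold change was 0.17 (SE 0.09, exact permutation p = 0.0857), and without PF3 it was 0.22 (limma, adjusted p = 0.436). For HNRNPA2B1 and HNRNPH1, both regulators of alternative exons, PF3 was the highest of all arrays. HNRNPA2B1 had 9.47, 9.52, 9.30 and 9.51 in HS and 9.24, 9.43, 10.20 and 9.48 in PF, and HNRNPH1 had 9.62, 9.61, 9.76 and 9.86 in HS and 9.53, 9.79, 10.41 and 9.67 in PF. HNRNPUL1, a relative of HNRNPU, had PF3 as the lowest, with 9.66, 9.51, 9.71 and 9.67 in HS and 9.70, 9.72, 9.33 and 9.70 in PF. The groups also overlapped for HNRNPA3, HNRNPAB, HNRNPC, HNRNPD, HNRNPF, HNRNPK, HNRNPR and HNRNPUL2, whose log2 fold changes lay between those of HNRNPH3 and HNRNPA0.

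Of the 9 SF3A and SF3B genes, 7 had the higher mean in HS (median log2 fold change 0.19). It was also 7 of 9 without PF3, with a median of 0.14, and 0.05 without PF1 and PF3. No SF3 gene had an unadjusted limma p under 0.05. SF3A1, a subunit of the SF3A complex of the U2 snRNP, had signals of 8.50, 8.32, 8.24 and 8.26 in HS and 7.79, 8.19, 7.38 and 8.22 in PF. PF2 and PF4 lay close to the HS arrays, and PF1 and PF3 far below them. Its log2 fold change was 0.43 (SE 0.19, exact permutation p = 0.029), with 0.26 without PF3 and 0.12 without PF1 and PF3. SF3A2 also had PF3 and PF1 as its lowest arrays, with 8.36, 8.21, 8.10 and 8.21 in HS and 7.70, 8.28, 7.42 and 8.14 in PF. SF3A3, the third subunit of that complex, had 8.44, 8.39, 8.51 and 8.58 in HS and 8.40, 8.28, 8.35 and 8.15 in PF, and here PF3 lay within the other PF arrays. Its log2 fold change of 0.19 (SE 0.09, exact permutation p = 0.0571) was 0.20 without PF3.

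SF3B4, a branch region RNA-binding subunit, had the highest fold change of all members. The signals were 8.98, 8.99, 8.51 and 8.63 in HS and 8.21, 8.81, 7.47 and 8.58 in PF, and the groups overlapped. The log2 fold change of 0.51 (SE 0.28, 95% confidence interval -0.13 to 1.15, exact permutation p = 0.143) was 0.25 without PF3 and 0.08 without PF1 and PF3. SF3B1, the core subunit that contacts the branch helix, had the lower mean in HS, with 9.79, 9.61, 9.74 and 9.85 in HS and 9.75, 9.67, 10.66 and 9.79 in PF. PF3 alone stood apart, and the log2 fold change of -0.22 (exact permutation p = 0.514) was 0.01 without it. SF3B3, its large scaffold partner, had 9.76, 9.79, 9.80 and 9.84 in HS and 9.51, 9.85, 9.44 and 9.65 in PF, and a log2 fold change of 0.19 (exact permutation p = 0.143). SF3B5, a small subunit encoded on chr9:82549526-82550198 of UMD3.1, had 8.07, 7.55, 7.25 and 7.63 in HS and 7.34, 8.17, 6.52 and 7.73 in PF. Its log2 fold change changed sign, with 0.18 for all arrays and -0.12 without PF3. SF3B14, the older name of SF3B6, also had the lower mean in HS, with a log2 fold change of -0.07, and -0.23 without PF3. The groups overlapped for SF3B14 and SF3B2.

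The means of the 3 U2AF genes lay close together in HS and PF. U2AF2, the large subunit that binds the polypyrimidine tract, had 8.78, 8.76, 8.41 and 8.69 in HS and 8.58, 8.85, 8.30 and 8.87 in PF, that is, a mean of 8.66 ± 0.17 in HS and 8.65 ± 0.27 in PF (SD, n = 4 each). U2AF1, the small subunit that reads the terminal AG of the intron, averaged 7.65 ± 0.13 in HS and 7.68 ± 0.22 in PF. Its paralog U2AF1L4 averaged 7.46 ± 0.10 in HS and 7.36 ± 0.28 in PF. All 3 confidence intervals lay inside 1.5-fold, and the direction of U2AF2 differed between settings.

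**Figure D2:**
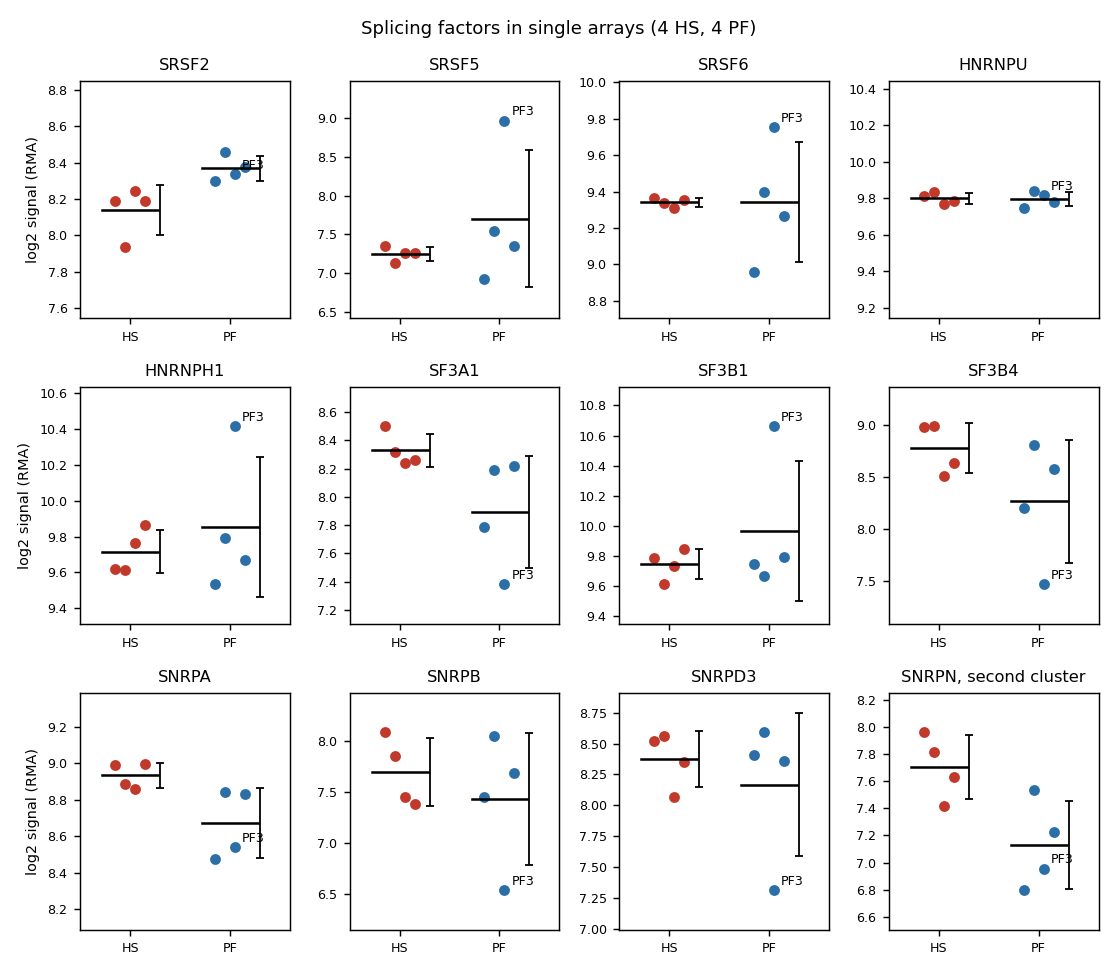
Log2 RMA signal of 11 splicing factors and of the second SNRPN cluster in single arrays (dots; HS left, PF right, 4 arrays each), with the group mean (line) and SD (bar). SF3A1 and SNRPA have all HS dots above all PF dots and SRSF2 has all HS dots below them, while PF3 sits far above in SRSF5, HNRNPH1 and SF3B1 and far below in SF3B4, SNRPB and SNRPD3.

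Among the 11 SNRP genes, 7 had the higher mean in HS (median log2 fold change 0.02), and 4 did without PF3 (median -0.08). The median also moved with other arrays, to 0.21 with 9 higher without PF2, to 0.15 with 8 higher without PF1 or HS3, and to -0.01 with 5 higher without HS1. SNRPA, which binds a stem loop of the U1 snRNA and is encoded on chr18:50299426-50310253 of UMD3.1, had 8.99, 8.89, 8.86 and 8.995 in HS and 8.48, 8.84, 8.54 and 8.83 in PF. PF2 and PF4 lay just under the lowest HS array. The log2 fold change was 0.26 (SE 0.11, exact permutation p = 0.029), with 0.22 without PF3 and 0.10 without PF1 and PF3. SNRPB2, its counterpart on the U2 snRNA, had 7.32, 7.42, 7.24 and 7.28 in HS and 7.65, 7.67, 7.32 and 7.48 in PF, and a log2 fold change of -0.21 (SE 0.11, exact permutation p = 0.0857). Without PF3 every HS array lay below every PF array, with a log2 fold change of -0.28 (limma, adjusted p = 0.379).

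The 7 Sm genes among the members were SNRPB, SNRPD1, SNRPD2, SNRPD3, SNRPF, SNRPG and SNRPN, the tissue-specific paralog of SNRPB. They are not a complete snRNP ring, since SNRPE was not among the members. Their median log2 fold change was 0.02 with all arrays and -0.12 without PF3. SNRPB had 8.08, 7.85, 7.45 and 7.38 in HS and 7.45, 8.04, 6.54 and 7.69 in PF. SNRPD3, on chr17:73479566-73484880 of UMD3.1, had 8.52, 8.56, 8.07 and 8.35 in HS and 8.41, 8.59, 7.31 and 8.36 in PF. In both genes PF3 was the lowest array by a wide margin and the remaining PF arrays lay within or near the range of HS. SNRPF had weak signals, 4.65, 4.66, 4.63 and 4.81 in HS and 4.56, 5.17, 5.43 and 4.71 in PF, and the lowest fold change of the family (log2 fold change -0.28, exact permutation p = 0.343). This was -0.12 without PF3, where SNRPD1 and SNRPB2 had the lowest values of the family (-0.29 and -0.28), and -0.41 without PF1, with an unadjusted limma p under 0.05. SNRPC, a protein of the U1 snRNP, and SNRPA1, which pairs with SNRPB2 on the U2 snRNP, had overlapping groups.

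SNRPN, SNRPD1 and SNRPG each had a second cluster. The chosen SNRPN cluster had 9.46, 9.38, 9.27 and 9.45 in HS and 9.19, 9.30, 9.26 and 9.02 in PF, with a log2 fold change of 0.20 (SE 0.10, exact permutation p = 0.0571). The second SNRPN cluster had 7.96, 7.81, 7.42 and 7.63 in HS and 6.79, 7.53, 6.95 and 7.22 in PF, with only HS3 below PF2. Its log2 fold change of 0.58 (SE 0.19, adjusted p = 0.683, exact permutation p = 0.0571) had an unadjusted limma p under 0.05, also with any single array left out, and was 0.52 without PF3. It was 0.33 without PF1 and PF3, with an unadjusted p above 0.05. This cluster is not one of the 51 members. It is singled out because its values were seen, and SNRPN shares sequence with SNRPB, so the assignment of its signal is uncertain. The second clusters of SNRPD1 (chr2:49736040-49736399 of UMD3.1) and SNRPG (chr19:12231223-12231584) are short stretches at other loci, whose relation to these genes was not tested, and their log2 fold changes were -0.02 and 0.02.

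**Figure D3:**
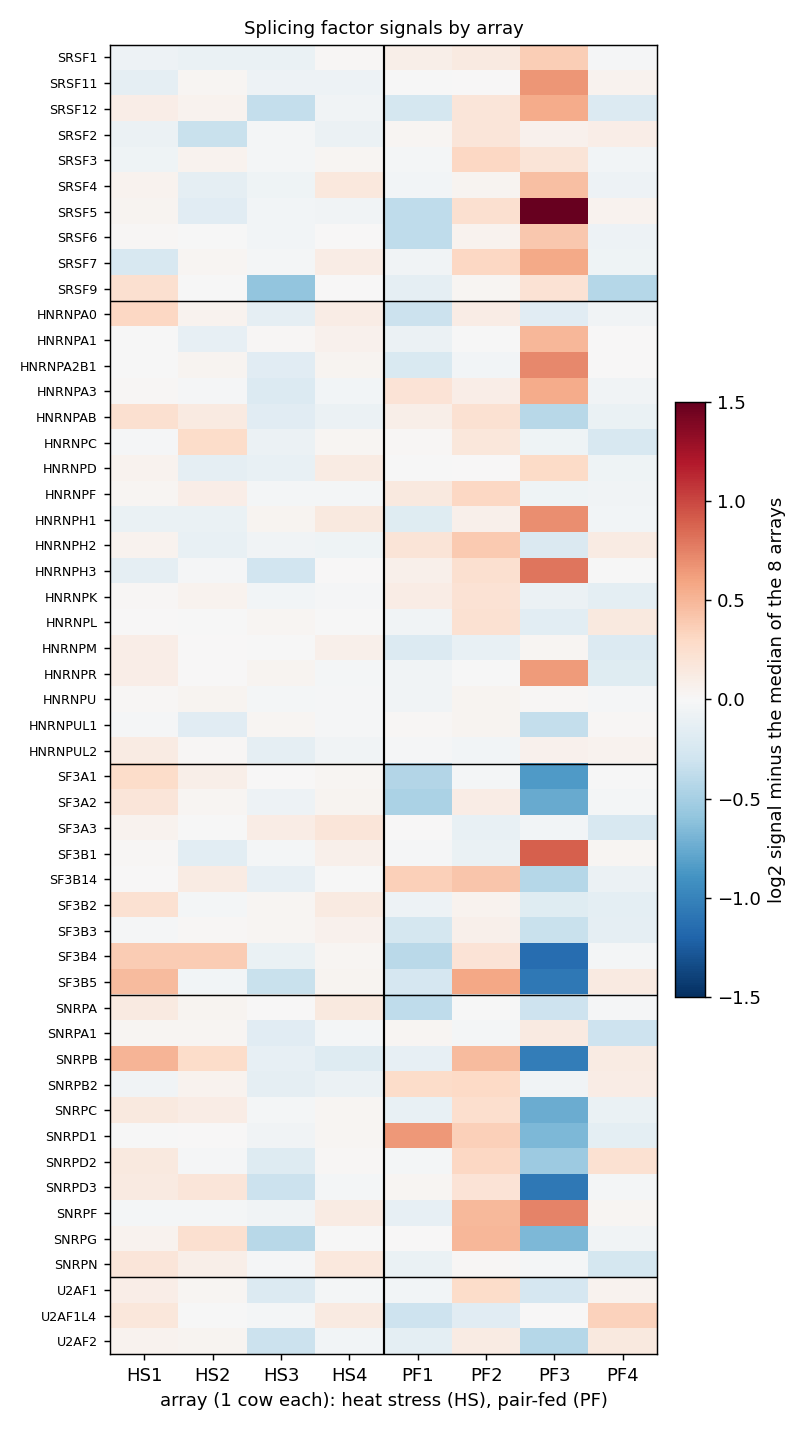
Log2 signal of each of the 51 splicing factors in each array minus the median of the 8 arrays for that gene (color, red above and blue below; HS arrays left, PF arrays right; families separated by lines). The PF3 column is red for 7 of 10 SRSF genes and SF3B1 as their highest array, and blue for 7 of 9 SF3 and 6 of 11 SNRP genes as their lowest.

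The SD between arrays had a median over the members of 0.10 in HS, 0.27 in PF and 0.17 in PF without PF3, where the medians for all clusters were 0.15, 0.25 and 0.19. PF3 was the highest of the 8 arrays in 17 members and the lowest in 20, that is, extreme in 37 of 51 (72.5%). It was extreme in 48.8% of all clusters and in 56.8% of those with a mean signal of at least 5. These counts describe 1 array that was singled out after its values were seen, and no test was made on them.

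The families differed in where PF3 lay among the arrays. Over all clusters PF3 was the highest array in 26.1% and the lowest in 22.8%. Among clusters with a mean signal of at least 5 this was 25.0% and 31.9%. For the SRSF genes PF3 was the highest of the 8 arrays in 7 of 10 and the lowest in none, and the median of PF3 minus the mean of PF1, PF2 and PF4 was 0.49. The HNRNP genes were split, 7 highest and 5 lowest, with a median of 0.05. For SF3 genes PF3 was the lowest in 7 of 9, with a median of -0.62, and the exceptions were SF3B1 at 0.92 and SF3A3 at 0.07. It was the lowest in 6 of 11 SNRP genes, with a median of -0.72, and in 5 of 7 Sm genes, with a median of -0.82. The largest differences were 1.69 for SRSF5 on the high side and -1.23 for SF3B5, -1.19 for SNRPB and -1.14 for SNRPD3 on the low side.

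**Figure D4:**
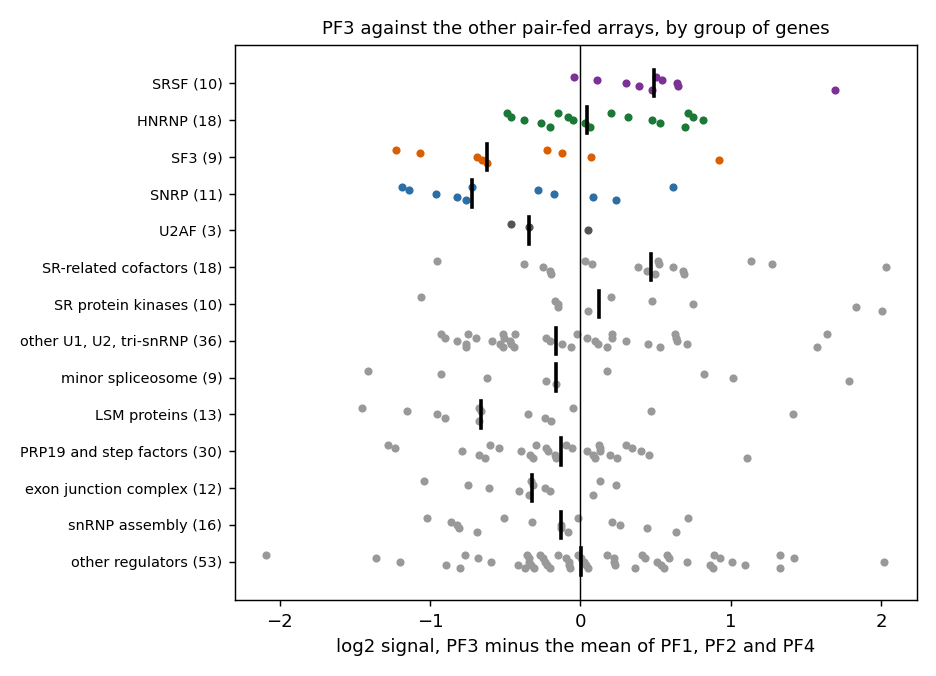
Log2 signal in PF3 minus the mean of PF1, PF2 and PF4 for each gene (dots) of the 5 member families (colored) and of 9 groups of other splicing genes (gray), with the group median (bar) and the number of genes in parentheses. The SRSF median lies at 0.49 and that of the SR-related cofactors at 0.47, while SF3 lies at -0.62, SNRP at -0.72 and the LSM proteins at -0.66. The other U1, U2 and tri-snRNP proteins lie at -0.16.

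Other genes of the splicing pathway, listed by role, gave a wider view. Of 205 listed genes 197 were on the array. Their mean was higher in HS for 127 and lower for 70, with a median log2 fold change of 0.08, where 46% of all clusters, and 53% of those with a mean signal of at least 5, had the higher mean in HS. Without PF3 it was 125 and 72, with a median of 0.07. An unadjusted limma p under 0.05 was reached by 11 with the higher and 3 with the lower mean in HS (7.11%, against 7.2% of all clusters), and 4 passed the study's thresholds (2.03%, against 2.21% of all clusters). The smallest adjusted p was 0.649. The groups did not overlap for 4.57% of the 197 genes, against 4.64% of all clusters. In 6 of these genes HS lay above PF and in 3 below. EFTUD2 was among the 6, with an unadjusted limma p above 0.05. Without PF3, 12 with the higher and 4 with the lower mean in HS reached an unadjusted limma p under 0.05, against 10.7% of all clusters. The study's thresholds were then passed by 3 of the 197 genes, against 3.39% of all clusters. In PF3, the 18 SR-related cofactors resembled the SRSF genes, with a median of 0.47 above the other PF arrays. The 13 LSM proteins, which form a ring like that of the Sm proteins, lay at -0.66. The 36 other snRNP proteins (U1, U2 and U4/U6.U5) lay at only -0.16, with PF3 the highest array in 10 and the lowest in 16. The medians of the remaining lists ran from -0.32 (exon junction complex) to 0.12 (kinases and nuclear import of SR proteins).

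The 4 genes past the study's thresholds were all higher in HS. HTATSF1, a U2 snRNP-associated factor, had 8.75, 8.66, 8.37 and 8.49 in HS and 7.69, 8.08, 7.57 and 8.29 in PF, without overlap, and a fold change of 1.58 (adjusted p = 0.649, exact permutation p = 0.029). CDC40 (PRP17), needed for the second step of splicing, had 8.07, 7.85, 7.47 and 7.75 in HS and 6.65, 7.36, 6.80 and 7.56 in PF, and a fold change of 1.61 (adjusted p = 0.683). RBM24 and RBM47 are RNA-binding regulators of tissue-specific exons. RBM24 had 8.70, 8.97, 7.79 and 8.63 in HS and 6.205, 7.75, 7.95 and 6.87 in PF, with a fold change of 2.51 (adjusted p = 0.683). RBM47 had 8.74, 8.23, 7.94 and 8.41 in HS and 7.05, 7.66, 6.40 and 8.11 in PF, with a fold change of 2.04 (adjusted p = 0.683). HS3 overlapped with PF in CDC40, RBM24 and RBM47. For RBM47 the unadjusted limma p was above 0.05 without HS1, and for the other 3 genes it stayed under 0.05 whichever single array was left out.

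Of the partners of the members, TRA2B, an SR-like activator of exons, was lower in HS. It had 9.11, 9.18, 9.10 and 9.09 in HS and 9.33, 9.38, 9.75 and 9.40 in PF, with a log2 fold change of -0.34 (SE 0.11, adjusted p = 0.683) and -0.25 without PF3. All HS arrays lay below all PF arrays. UPF3A, an exon junction factor of nonsense-mediated decay, also had every HS array below every PF array, 5.64, 5.59, 5.68 and 5.69 in HS and 6.07, 5.83, 6.03 and 5.82 in PF (log2 fold change -0.29, adjusted p = 0.683). CIRBP, the cold-inducible RNA-binding protein, was the third lower gene, at 8.11, 7.76, 8.14 and 8.01 in HS and 8.30, 8.38, 9.25 and 8.28 in PF (log2 fold change -0.55, adjusted p = 0.683, and -0.32 without PF3), and its unadjusted p was above 0.05 when any single HS array was left out.

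On the higher side, MBNL2, a muscleblind regulator of alternative exons, was nearly constant in HS (10.09, 10.05, 10.05 and 10.02) and ran lower in PF (9.50, 9.64, 9.29 and 9.98), with a log2 fold change of 0.45 (SE 0.15, adjusted p = 0.683). PRPF8, the central scaffold of the spliceosome, had 10.45, 10.33, 10.37 and 10.33 in HS and 10.02, 10.20, 9.71 and 10.30 in PF, and a log2 fold change of 0.31 (adjusted p = 0.683). It was 0.20 without PF3, with an unadjusted p above 0.05, which was also so without PF1 or any single HS array. DDX46, the helicase that remodels the U2 snRNP, averaged 7.55 ± 0.32 in HS and 7.12 ± 0.11 in PF, with no overlap and a log2 fold change of 0.43 (adjusted p = 0.683), but an unadjusted p above 0.05 without HS1, HS2 or PF1. The remaining higher genes were LSM6 at 0.48, SNUPN, an import adaptor of snRNPs, at 0.30, CLK3, a kinase of SR proteins, at 0.27, and KHDRBS1 (SAM68) at 0.27. Each of these 4 had an unadjusted p above 0.05 after some single arrays were left out, LSM6 without HS1 or HS4, SNUPN without HS1, HS4, PF1 or PF3, CLK3 without HS1, HS2, HS4, PF1, PF3 or PF4, and KHDRBS1 without PF1, PF3 or any HS array.

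**Figure D5:**
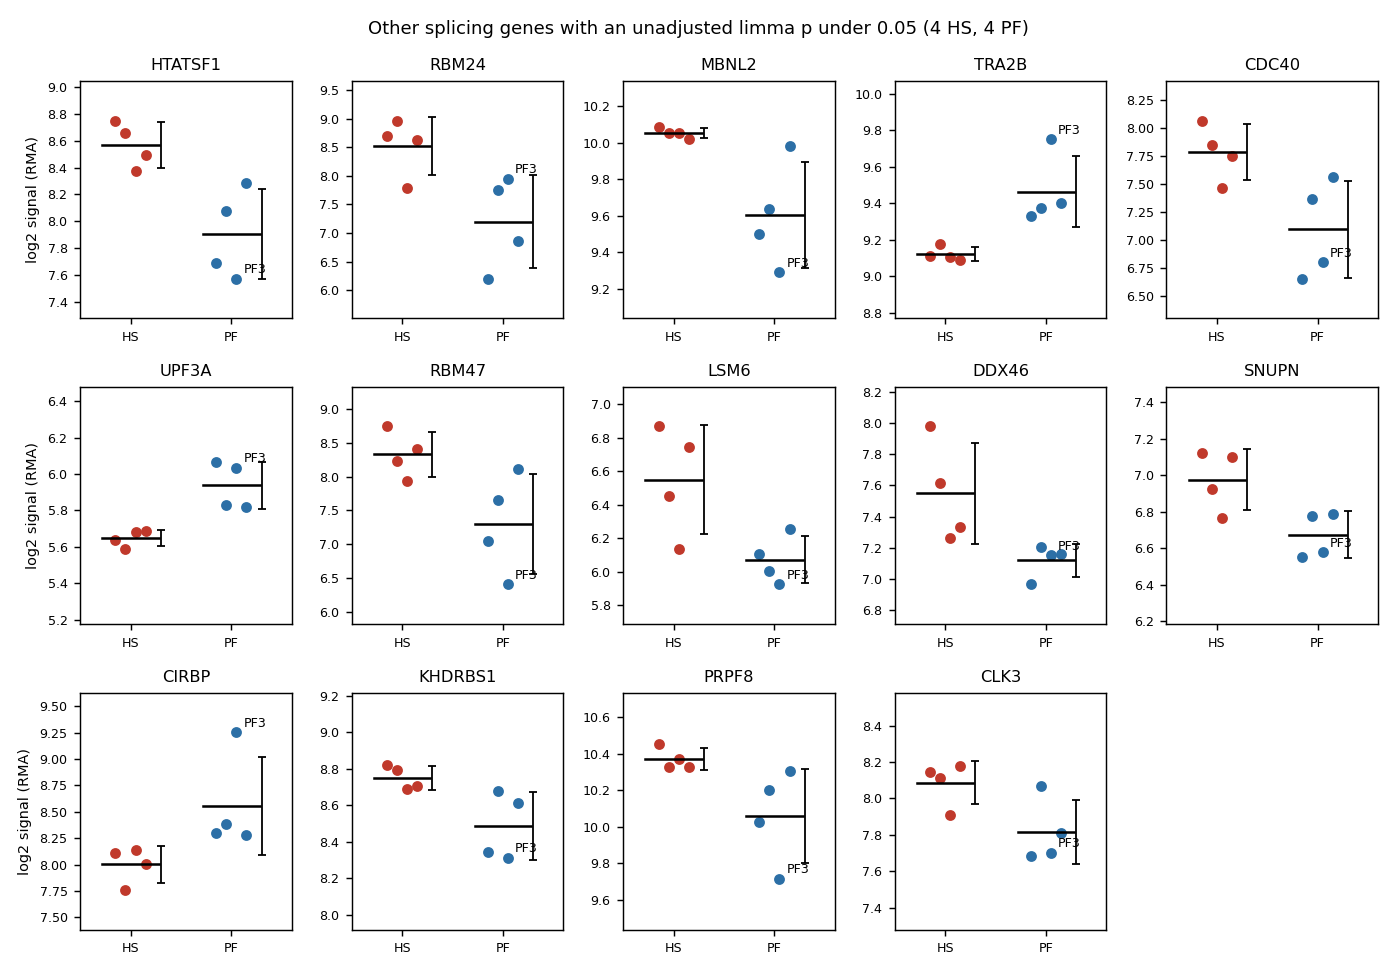
Log2 RMA signal in single arrays (dots; HS left, PF right, 4 arrays each) with group mean (line) and SD (bar) of the 14 other splicing genes with an unadjusted limma p under 0.05. HTATSF1, MBNL2, DDX46, PRPF8 and KHDRBS1 have all HS dots above all PF dots, and TRA2B, UPF3A and CIRBP have all HS dots below them. Of all 197 other splicing genes 4.57% had no overlap, against 4.64% of all clusters.

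Relatives that the table lists under older symbols lay outside the rule on names. HNRPLL (HNRNPLL) had the higher mean in HS, with overlapping groups (log2 fold change 0.11, exact permutation p = 0.371, and 0.05 without PF3). PF3 was its lowest array. HNRPDL (HNRNPDL) had 9.06, 8.98, 9.09 and 9.15 in HS and 9.19, 9.23, 9.73 and 9.22 in PF, so that every HS array lay below every PF array (log2 fold change -0.27, adjusted p = 0.683, exact permutation p = 0.029, and -0.14 without PF3). SFRS13A (SRSF10), an SR protein that is dephosphorylated upon heat shock in human cells and then represses splicing, had 7.09, 7.19, 7.02 and 7.08 in HS and 7.50, 6.88, 8.60 and 6.55 in PF. Its HS arrays were nearly equal and its PF arrays spread widely on both sides of them. The log2 fold change of -0.29 (SE 0.39, exact permutation p = 0.714) was 0.12 without PF3. Without PF1 and PF3 it was 0.38, with an unadjusted limma p under 0.05. Of the 51 members, 48 (94.1%) carried a gene ontology term, as did 49.9% of all clusters. A term that names splicing or the spliceosome was carried by 33 members (64.7%) and by 0.695% of all clusters. The members were chosen by name, so these shares describe the annotation and are not a result.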

How the data were processed

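Total RNA of mural granulosa cells of 8 cows was hybridized to Bovine Gene 1.0 ST arrays, 1 per cow, so replicates are separate animals. The deposited values are log2 signals that the authors obtained in the Expression Console by RMA (background correction, quantile normalization and gene-level summary), in 2 tables that differ by at most 1.8e-15. Scan dates and batches are not given in the sources used here. The authors then used analysis of variance in the Transcriptome Analysis Console 3.0, whose results were not used here.

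HS was compared with PF over all 26773 clusters, without a filter on weak signals, by lmFit and eBayes of limma 3.58.1 (R 4.3.3), unpaired, with Benjamini-Hochberg adjustment over all clusters. Single genes were also tested by exact two-sided permutation of the arrays (70 ways to split them 4 and 4), and the unadjusted limma p is used, without its value, to count genes, to choose named genes and to say where leaving out an array moves a gene across 0.05. The script was tested on simulated data. Counting and plotting used Python 3.11.15 and pandas 2.3.3. The number of arrays limits the precision.

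Members, gene lists and markers were chosen with earlier results of these data known. Named by rule were, in each family, the members with the highest and the lowest fold change, the 2 with the highest mean signal, those with an unadjusted p under 0.05 and those without overlap, and of each list of other splicing genes up to 3 with the smallest p under 0.05. Other named genes (SRSF11, HNRNPM, HNRNPH1, HNRNPH2, HNRNPU, HNRNPUL1, HNRNPA2B1, SF3A2, SF3A3, SF3B5, SNRPB, SNRPB2, SNRPD3, CIRBP, KHDRBS1, EFTUD2, HNRPLL, HNRPDL and SFRS13A) were picked after their values were seen. Coordinates are those of UMD3.1 in the table's own descriptions, given for 12 clusters, and the RefSeq list of ARS-UCD2.0 served only to update names.

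Settings were changed 1 at a time. The test became the methods' t-test (also with fold changes from Tukey's biweight averages, which leave its p-values as they are), a moderated fit with an intensity trend, a fit with weights per array, or a fit with the replicate number as block. The clusters were limited to those with a mean of at least 5 or with a symbol. The scale was changed by subtracting array medians or by another round of quantile normalization, and the values were taken from the second table. Single arrays, or PF1 and PF3 together, were left out, and symbols with several clusters were averaged or read from their second cluster.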

Additional observations from a re-analysis of the deposited data

Results flagged for a closer look

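In 7 of the named genes, with HNRPLL set aside, 1 array lay far from the other 3 of its group. The measure was Dixon's ratio of the gap to the nearest array over the range of the group, which was above its 95% critical value for 4 arrays. Chance flags about 1 in 20 groups of 4. The 7 genes cannot be set against that rate, because SRSF11, HNRNPUL1, CIRBP and HNRPDL were named after their values were seen. PF3 was that array in 6 of the 7. It lay above the other PF arrays in SF3B1 (ratio 0.871), SRSF11 (0.913), TRA2B (0.833), CIRBP (0.901) and HNRPDL (0.924), and below them in HNRNPUL1 (0.935). In HNRPLL, not counted among the 7, HS1 lay below the other HS arrays (0.851). In SNRPF, whose signals are weak, HS4 lay above the other HS arrays (0.855). Over the 51 members this was so for 1 HS group and 3 PF groups, and PF3 was the array in all 3. Over all 26773 clusters it was so for 1519 HS and 1934 PF groups, with PF3 in 1102 of the PF groups. Without PF3 the log2 fold change of SF3B1 was 0.01, that of SRSF11 -0.08, that of TRA2B -0.25, that of CIRBP -0.32, that of HNRPDL -0.14 and that of HNRNPUL1 -0.07.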

How the results depend on the processing

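With all arrays and limma no member had an unadjusted p under 0.05. Counts of members with such a p and a higher mean in HS were 4 with the methods' t-test (and 4 with fold changes from biweight averages, which use the same p-values and so are no separate test), 3 with array weights, 4 with array medians subtracted, 1 without PF1 and PF3, and 1 with either other choice of cluster (SNRPN), and 0 to 5 with 1 array left out. With a lower mean in HS they were 1 with the t-test, under either average, 2 with array weights, 1 among clusters with a symbol, 2 after a repeated quantile normalization, 2 without PF1 and PF3, and 0 to 3 with 1 array left out. The 5 higher ones appeared without PF2 (SF3A1, SF3A2, SF3B3, SF3B4 and SNRPA), and SF3B4 then passed the study's thresholds (0 to 1 members). The 3 lower ones appeared without PF4 (HNRNPA3, HNRNPH3 and SRSF1). No setting gave a member an adjusted p under 0.05. Members without overlap numbered 3 to 7 with 1 array left out, 7 without PF2, and 11 without PF1 and PF3. With fewer arrays groups fail to overlap more often in any gene. The share over all clusters was 4.64% with all arrays and 10.8% without PF3, and it was not counted for the other settings. The larger counts are therefore not read as a result about the members. With the replicate number as a block, 1 member (SF3B4) had the higher mean at an unadjusted p under 0.05. Deviations of arrays with the same number correlated between -0.27 and 0.21, so the numbers were not taken as pairs. Other splicing genes with a higher mean in HS at that p numbered 4 to 29 with 1 array left out (4 without HS1, 29 without PF2). Those with a lower mean numbered 2 to 7 (7 without PF4), and 5 with array weights. The number of all 26773 clusters at that p, in either direction, moved as well. It was 1928 with all arrays, 981 without HS1, 3240 without PF2, 2177 without PF4 and 3743 with array weights. The counts of members and of other splicing genes by setting are to be read beside these. The share of higher means among all clusters at that p was 60.9%, and 79.0% with array medians subtracted. It was 45.7% with array weights, 49.2% without PF1, 52.0% without PF1 and PF3 and 70.6% among clusters with a mean of at least 5. The HNRNP median log2 fold change was 0.00586 with array medians subtracted. The U2AF median was -0.187 without PF1 and PF3, and -0.109 to 0.0907 with 1 array left out. Some log2 fold changes changed sign, and not all of them were near 0. With all arrays SFRS13A had -0.29, SNRPB 0.26, SF3B1 -0.22, SNRPD3 0.21 and SF3B5 0.18. Biweight averages gave 0.00996 for SRSF6, 0.0345 for HNRNPA1, 0.0196 for SF3B1, -0.0292 for HNRNPUL1, 0.0282 for HNRNPH1 and 0.106 for HNRNPA2B1. Array weights gave 0.0571 for SRSF6, -0.115 for U2AF1L4, -0.146 for U2AF2, -0.0689 for HNRNPUL1, -0.126 for SF3B5 and 0.291 for SFRS13A. Subtracted array medians gave 0.0551 for SRSF6, 0.0217 for HNRNPL and 0.0236 for U2AF1, and a repeated quantile normalization -0.0442 for U2AF2, -0.0498 for HNRNPUL1 and -0.0457 for HNRNPU. Without PF1 and PF3 the values were 0.0107 for SRSF6, 0.0162 for SF3B1, -0.181 for HNRNPL (same sign), -0.026 for U2AF1L4, -0.201 for U2AF2, -0.0747 for HNRNPUL1, -0.00815 for HNRNPU, -0.326 for SF3B5, -0.175 for SNRPB, -0.0993 for SNRPD3 and 0.381 for SFRS13A. With 1 array left out they ran from -0.13 to 0.134 for SRSF6, -0.177 to 0.0201 for HNRNPA1, -0.101 to 0.028 for HNRNPL, -0.322 to 0.00962 for SF3B1, -0.119 to 0.0544 for U2AF1, 0.00104 to 0.221 for U2AF1L4, -0.109 to 0.0907 for U2AF2, -0.0691 to 0.0669 for HNRNPUL1, -0.0111 to 0.0187 for HNRNPU, -0.244 to 0.0488 for HNRNPH1, -0.249 to 0.0694 for HNRNPA2B1, -0.122 to 0.429 for SF3B5, -0.0368 to 0.465 for SNRPB, -0.0771 to 0.349 for SNRPD3 and -0.562 to 0.12 for SFRS13A. Causes of these changes were not tested.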
